A study of Mus musculus with 56 samples.

Results

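The T cell receptors of 3 luc NICD liver tumours were compared with those of 3 luc sgp53 liver tumours. Barcodes called cells were taken as T cells where they carried a productive, high-confidence contig of the TCR beta chain (TRB), and the contig with the most unique molecular identifiers (UMIs) stood for the cell. This rule gave 2104 T cells, of 7605 in the 15 TCR libraries of the series, with 412 in the luc NICD tumours and 1692 in the luc sgp53 tumours. The 6 libraries belong to a series of 56 samples on NOTCH1 in mouse hepatocellular carcinoma, which also holds TCR libraries of tumours with another antigen construct, lucOS.

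The luc NICD tumours came from females labelled with the constructs MycLuc and NICD. NICD is the intracellular domain of NOTCH1, its active form. The luc sgp53 tumours came from females labelled MycLuc and sgp53, which by its name is a guide RNA against p53. All 6 animals thus carried MYC together with luciferase, and neither group is a tumour-free control. The labels of the bulk tumours in the series name hydrodynamic tail vein injection into C57BL/6 mice, which delivers plasmid DNA mainly to hepatocytes, while the labels of the TCR libraries name neither strain nor age. Each library came from a dissociated tumour nodule. CD45+ and CD45- cells were separated, counted and recombined in equal parts before they were loaded, and the number of T cells in a library is not a density in the tumour. The libraries are called NICD 1 to NICD 3 and sgp53 1 to sgp53 3. Their titles carry different animal numbers, those of the NICD animals being separate from those of the sgp53 animals, and any effect of cohort or processing day cannot be told apart from the genotype.

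A TCR is a pair of chains, TRA and TRB, each assembled in the thymus by joining a variable (V) and a joining (J) segment, with a diversity segment between them in TRB. The joint encodes CDR3, the loop that contacts the antigen peptide, and bases trimmed or added there make nearly every new receptor different. Cells that carry the same joint usually descend from 1 T cell and form a clonotype, and large clonotypes mark clonal expansion. Most T cells see peptides on MHC molecules. Invariant natural killer T (NKT) cells, which are abundant in mouse liver, see lipids on CD1d through a fixed TRAV11-TRAJ18 chain, and mucosal-associated invariant T (MAIT) cells see vitamin B2 precursors on MR1 through TRAV1-TRAJ33.

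The luc NICD libraries held fewer T cells than the luc sgp53 libraries. There were 286, 77 and 49 T cells in NICD 1, 2 and 3, against 402, 599 and 691 in sgp53 1, 2 and 3. The largest NICD library was smaller than the smallest sgp53 library. The means were 137 ± 130 T cells in NICD and 564 ± 148 in sgp53 tumours (SD, n = 3 each), a difference of -427 with an exact permutation p of 0.1, the smallest that 3 against 3 libraries can give, and an adjusted p of 0.5 over the 10 single-value measures (exact two-sided permutation tests, Benjamini-Hochberg). The lucOS tumours, with 432, 151 and 268 T cells in NICD and 1282, 828 and 675 in sgp53 animals, did not overlap either, and the last of these is the mean of 2 nodules of 1 animal. In the luc libraries, barcodes not called cells with a productive TRB contig of any confidence numbered 205, 81 and 44 in NICD and 660, 993 and 600 in sgp53 libraries. With a high-confidence contig, as the T cell rule asks, they numbered 17, 5 and 2 in NICD and 14, 93 and 19 in sgp53 libraries, which overlap. Because the immune fraction was set by hand, fewer T cells in the tumour and fewer T cells among the immune cells loaded cannot be told apart. Neither can be told apart from poorer recovery of cells or receptors in the NICD libraries.

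The receptors of the NICD T cells were also read from fewer molecules. The TRB contig had a median of 6 UMIs in each NICD library, against 9, 9 and 12 UMIs in sgp53 1, 2 and 3. The share of T cells whose TRB contig rested on fewer than 3 UMIs was 12.6, 22.1 and 14.3% in NICD and 8.46, 6.34 and 3.76% in sgp53 libraries. Sequencing was deep in all 6, with 1100 to 2256 reads behind a TRB UMI in NICD and 728 to 1091 in sgp53 libraries. Fewer receptor transcripts per cell and poorer capture cannot be told apart here.

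A TRA chain was found in 73.8, 66.2 and 77.6% of the T cells of NICD 1, 2 and 3, against 80.3, 78.0 and 76.8% in sgp53 1, 2 and 3. NICD 3 lay inside the range of the sgp53 libraries (exact permutation p = 0.2, adjusted p = 0.667). No contig of a gamma chain or of an immunoglobulin was found in any of the 6 libraries, and none of the delta chain contigs, at most 15 in a library, was productive. The enrichment amplifies TRA and TRB and the cells were chosen by TRB, so this is no check of their identity and gives no number of gamma-delta T cells or B cells.

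A second TRB chain, which allelic exclusion makes rare in 1 cell and which a droplet with 2 T cells also gives, was found in 3.15, 1.30 and 0% of T cells in NICD 1, 2 and 3 and in 3.23, 7.51 and 5.21% in sgp53 1, 2 and 3. The groups did not overlap, and the difference of means was -3.84 percentage points (exact permutation p = 0.1, adjusted p = 0.5). The count of 0 in the 49 T cells of NICD 3 allows a share of up to 6.12%. A second TRA chain, which is not excluded in this way, was present in 7.11, 9.80 and 5.26% of the T cells with TRA in NICD and in 9.29, 12.6 and 9.60% in sgp53 libraries (exact permutation p = 0.3, adjusted p = 0.75). The libraries also differed in the number of T cells and in the UMIs per contig, as given above, and the part of these in either share was not tested.

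Most T cells carried a receptor seen once. NICD 1, 2 and 3 held 268, 77 and 42 TRB clonotypes, defined by V segment, J segment and CDR3 bases, against 304, 538 and 634 in sgp53 1, 2 and 3. Clonotypes of 5 or more T cells numbered 0, 0 and 1 in the NICD and 7, 3 and 2 in the sgp53 libraries. In NICD 2 all 77 T cells had different TRB chains. The share of T cells in clonotypes of 2 or more was 11.9, 0 and 18.4% in NICD and 31.3, 14.5 and 11.9% in sgp53 libraries before any correction for the number of T cells.

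**Figure D1:**
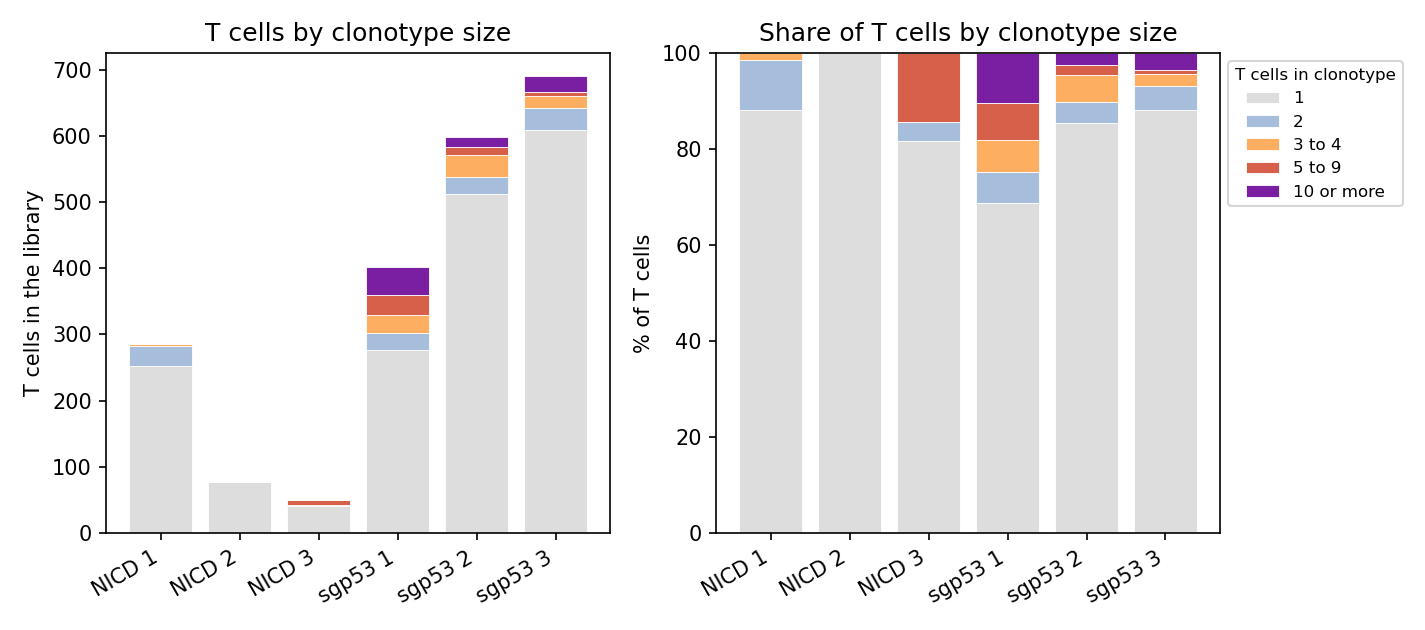
T cells of each luc library by the size of their TRB clonotype, as numbers (left) and as percent of the library (right). The grey part, receptors seen once, was the largest in every library, at 100% in NICD 2 and, at the lowest, 68.7% in sgp53 1.

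Because repeats are found more readily among many cells, every library was brought to 49 T cells, the number in NICD 3, by the expectation over draws without replacement. At this number 2.36, 0 and 18.4% of T cells were in clonotypes of 2 or more in NICD 1, 2 and 3, against 15.9, 3.84 and 3.79% in sgp53 1, 2 and 3. NICD 3 and sgp53 1 stood above the other 4 libraries, so the spread within each group was larger than the difference between them. The means were 6.91 ± 9.99% in NICD and 7.86 ± 7.0% in sgp53 tumours (SD, n = 3 each; exact permutation p = 0.8, adjusted p = 1). The value of NICD 3 rests on 9 T cells in 2 clonotypes, and without it the difference was -6.67 percentage points. Without sgp53 1 the difference was 3.09, without NICD 1 it was 1.33 and without NICD 2 it was 2.51, all of the opposite sign.

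**Figure D2:**
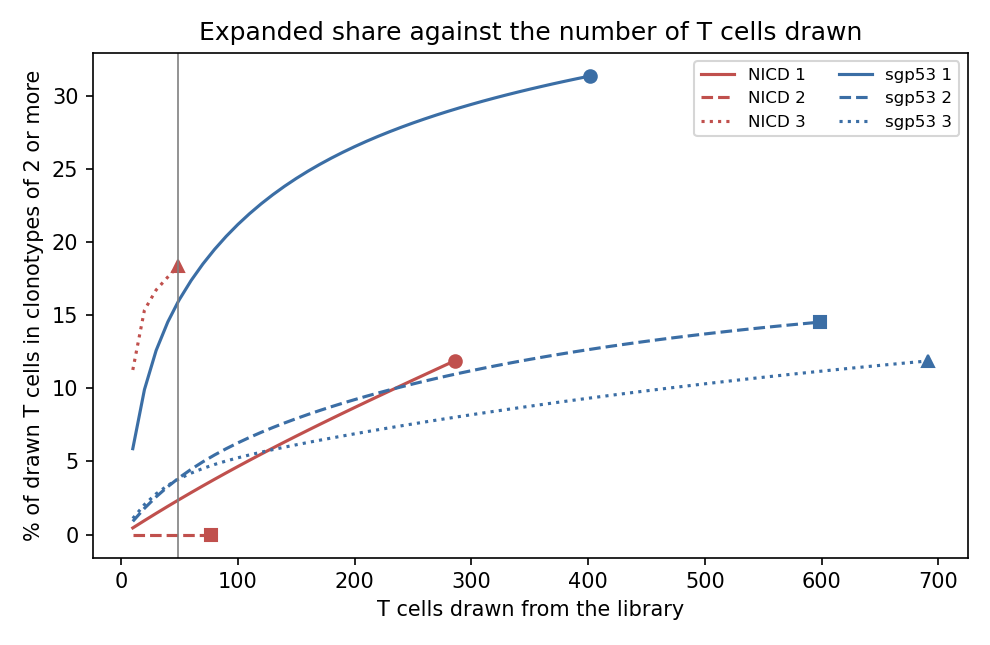
Percent of T cells in clonotypes of 2 or more expected when a given number of T cells is drawn from each library, with the full library as the end point and a grey line at 49 T cells. NICD 3 (18.4%) and sgp53 1 (15.9%) lie above the other libraries at the grey line, where those range up to 3.84%.

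The largest clonotype took 1.40, 1.30 and 14.3% of the T cells in NICD 1, 2 and 3, against 7.71, 2.50 and 3.47% in sgp53 1, 2 and 3 (exact permutation p = 1, adjusted p = 1). The 14.3% of NICD 3 is 7 of 49 T cells, with a 95% Wilson interval of 7.10 to 26.7%, and the 7.71% of sgp53 1 is 31 of 402, with an interval of 5.49 to 10.7%. Simpson clonality, the chance that 2 T cells drawn from a library share a clonotype, was 0.0515, 0 and 1.87% in NICD and 0.806, 0.107 and 0.137% in sgp53 libraries (exact permutation p = 1, adjusted p = 1). Of the NICD libraries, only NICD 3 was above sgp53 1, in both measures. Without NICD 3 both differences changed sign, to -3.21 percentage points for the largest clonotype and -0.324 for Simpson clonality.

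The CDR3 sequences of the leading clonotypes are shown because they are the expanded receptors of each tumour and were found in no other of the 6 libraries. They run 5′ to 3′ over the whole CDR3, and capitals mark the bases between the ends that most clonotypes of the same V segment, and of the same J segment, have in common. All TRB sequences come from mouse chromosome 6 and all TRA sequences from chromosome 14. The largest clonotype of each library with a repeated receptor was:
NICD 1, TRBV26-TRBJ2-7, 4 T cells: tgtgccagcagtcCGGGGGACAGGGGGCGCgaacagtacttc
NICD 3, TRBV19-TRBJ2-7, 7 T cells: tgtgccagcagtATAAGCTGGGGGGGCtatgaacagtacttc
sgp53 1, TRBV17-TRBJ2-2, 31 T cells: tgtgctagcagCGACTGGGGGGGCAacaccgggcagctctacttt
sgp53 2, TRBV3-TRBJ1-1, 15 T cells: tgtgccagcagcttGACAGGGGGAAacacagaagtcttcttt
sgp53 3, TRBV12-2-TRBJ2-7, 24 T cells: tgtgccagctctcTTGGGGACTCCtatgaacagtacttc

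The 5 receptors used 5 different V segments. Each came with 1 TRA chain in nearly all cells that had one. In NICD 1 all 4 cells carried TRAV7N-6-TRAJ48, and in NICD 3, 6 of the 7 cells carried TRAV13-1-TRAJ52 and 1 had no TRA. In sgp53 1, 30 of the 31 cells carried TRAV7-5-TRAJ33 and 1 had no TRA. In sgp53 3, 16 of 24 cells carried TRAV13N-1-TRAJ32 and 8 had no TRA. In sgp53 2, 9 of 15 cells carried TRAV6-6-TRAJ22, 1 had another TRA and 5 had none. The pairing was not used to define these clonotypes, so it is a second, separate readout that the cells of a clonotype share 1 receptor. These TRA chains were:
NICD 1, TRAV7N-6-TRAJ48: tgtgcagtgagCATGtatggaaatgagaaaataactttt
NICD 3, TRAV13-1-TRAJ52: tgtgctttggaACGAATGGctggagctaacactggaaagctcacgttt
sgp53 1, TRAV7-5-TRAJ33: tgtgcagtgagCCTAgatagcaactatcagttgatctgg
sgp53 2, TRAV6-6-TRAJ22: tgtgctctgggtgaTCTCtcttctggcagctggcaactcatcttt
sgp53 3, TRAV13N-1-TRAJ32: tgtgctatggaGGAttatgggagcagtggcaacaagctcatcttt

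Second clonotypes were smaller. The second of NICD 3, TRBV13-1-TRBJ1-1, had 2 T cells, both with TRAV12-2-TRAJ42. In sgp53 1 the second had 11 T cells with TRBV13-3-TRBJ1-3, of which 9 carried TRAV6N-6-TRAJ30. TRBV14-TRBJ2-5 formed the second clonotype in both sgp53 2, with 7 T cells, and sgp53 3, with 6, but the joints and the TRA chains were different. In NICD 1 several clonotypes of 2 tied for second place, and in NICD 2 no receptor repeated.

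Some receptors recurred between animals. Of 1849 TRB clonotypes defined by V segment, J segment and CDR3 protein sequence, 7 were found in 2 or more of the 6 libraries. Between NICD libraries there were 0 such sharings in 35126 pairs of clonotypes, against 1 in 568890 pairs between an NICD and an sgp53 library and 8 in 690921 pairs between sgp53 libraries. The NICD libraries held so few clonotypes that the count of 0 allows up to 85.4 sharings per 1000000 pairs, more than the 11.6 per 1000000 seen among sgp53 libraries. Less sharing among NICD tumours was therefore not detectable at this depth.

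One shared receptor, TRBV16-TRBJ2-5, was found in none of the 8 NICD libraries of the series, which held 2453 T cells, and in 11 T cells of its 7 sgp53 libraries, which held 5152. It was present in all 3 luc sgp53 libraries and in 3 of the 4 lucOS sgp53 libraries. It was listed because it recurred among the luc sgp53 libraries, so its absence in NICD libraries is a description and no test. No barcode of these cells recurred in another library. The 11 cells held 6 versions of the CDR3 bases that encode 1 protein sequence. All 10 cells in which a TRA was read carried TRAV21-DV12-TRAJ56, which was not used to find them. The versions in the luc animals, with the capitals as above, were:
sgp53 1, 2 T cells: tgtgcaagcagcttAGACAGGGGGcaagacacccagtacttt
sgp53 1, 2 T cells, and sgp53 2, 1 T cell: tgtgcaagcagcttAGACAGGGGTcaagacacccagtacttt
sgp53 3, 1 T cell: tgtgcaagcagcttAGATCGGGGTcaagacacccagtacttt
sgp53 3, 1 T cell: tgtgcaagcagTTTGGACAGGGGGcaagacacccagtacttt
The TRA chain of the 4 cells of sgp53 1 and of 1 cell of sgp53 3: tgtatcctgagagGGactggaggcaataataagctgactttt

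A second shared receptor, TRBV1-TRBJ1-2, had 4 T cells in sgp53 1 and 1 in sgp53 2 and recurred in 3 lucOS sgp53 libraries, 2 of them nodules of 1 animal, with 14 T cells in all. The 10 cells with a TRA carried TRAJ44 with TRAV5-4 or its near copy TRAV5D-4. Another, TRBJ1-3 with the combined V entry TRBV12-2+TRBV13-2, had 1 T cell in sgp53 1 and 2 in sgp53 3, and all 3 carried TRAV6-6-TRAJ37. The TRBV1 receptor had the same TRB bases in both luc libraries, and the other had different ones:
TRBV1-TRBJ1-2 in sgp53 1 and sgp53 2: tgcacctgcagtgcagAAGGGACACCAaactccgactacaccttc
TRBV12-2+TRBV13-2-TRBJ1-3 in sgp53 1: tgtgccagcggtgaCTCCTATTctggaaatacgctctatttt
TRBV12-2+TRBV13-2-TRBJ1-3 in sgp53 3: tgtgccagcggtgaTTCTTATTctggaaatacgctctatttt

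The other 4 were single cells in each of 2 libraries. TRBV12-2-TRBJ2-5 was shared by sgp53 1 and sgp53 3, and TRBV19-TRBJ2-1 by sgp53 1 and sgp53 2, neither with a TRA in both cells. TRBV29-TRBJ2-7 of sgp53 2 and sgp53 3 had the same bases and the same cell barcode in both libraries, so 1 cell read into both libraries cannot be told apart from 2 cells. TRBV3-TRBJ2-3, the one receptor shared between NICD 1 and sgp53 1, came with TRAV6N-5-TRAJ26 in NICD 1 and TRAV6-5-TRAJ27 in sgp53 1 and thus was not the same pair. Within the 6 libraries 3 cell barcodes recurred.

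Invariant NKT cells were found in every library. TRAV11-TRAJ18 was carried by 7, 1 and 2 T cells in NICD 1, 2 and 3, against 5, 13 and 19 in sgp53 1, 2 and 3. As shares of the T cells with TRA these were 3.32, 1.96 and 5.26% in NICD and 1.55, 2.78 and 3.58% in sgp53 libraries, which overlap. The means were 3.51 ± 1.66% in NICD and 2.64 ± 1.02% in sgp53 tumours (SD, n = 3 each; exact permutation p = 0.5, adjusted p = 1). The label of these cells was checked with the beta chain. Of the 47, 44 (93.6%) used TRBV1, TRBV13-1, TRBV13-2, TRBV13-3, TRBV29 or the combined entry TRBV12-2+TRBV13-2, the partners known for mouse invariant NKT cells and their nearest entries, against 35.3% of the other T cells with TRA.

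The 47 NKT cells held 47 different TRB chains, so no beta chain repeated among them. T cells in which no TRA was read were not searched for these chains. Their TRA chain encoded 1 protein sequence in 44 cells, written with 6 versions of the bases. The 4 most frequent differ only at the middle capital, the last base of a codon where a change leaves the protein the same, and capitals mark the positions at which the versions of this protein sequence differ:
15 T cells, 2 in NICD and 13 in sgp53 libraries: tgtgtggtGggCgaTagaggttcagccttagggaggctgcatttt
11 T cells, 2 in NICD and 9 in sgp53 libraries: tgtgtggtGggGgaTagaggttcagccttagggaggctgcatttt
8 T cells, 3 in NICD and 5 in sgp53 libraries: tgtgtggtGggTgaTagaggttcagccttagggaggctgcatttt
7 T cells, 2 in NICD and 5 in sgp53 libraries: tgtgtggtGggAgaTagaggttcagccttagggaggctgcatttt

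MAIT-type receptors were concentrated in 1 sgp53 tumour. TRAV1-TRAJ33 was carried by 4, 0 and 0 T cells in NICD 1, 2 and 3, against 2, 10 and 53 in sgp53 1, 2 and 3. As shares of T cells with TRA these were 1.90, 0 and 0% in NICD and 0.619, 2.14 and 9.98% in sgp53 libraries. The 95% Wilson interval of sgp53 3, 7.71 to 12.8%, lies above those of NICD 1, NICD 2, sgp53 1 and sgp53 2, whose upper bounds are 4.77, 7.0, 2.23 and 3.90%, but not above the bound of 9.18% that NICD 3 allows with 0 of 38. The means were 0.632 ± 1.09% in NICD and 4.25 ± 5.02% in sgp53 tumours (SD, n = 3 each; exact permutation p = 0.2, adjusted p = 0.257 over 9 measures chosen after the data were seen). Without sgp53 3 the difference of -3.62 percentage points shrank to -0.748. In the lucOS animals the shares were 7.57, 11.4 and 0% in NICD and 0.284, 0.809 and 0.922% in sgp53 animals, the means thus in the other order, and the difference between the luc and lucOS contrasts did not pass (exact permutation p = 0.095).

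The 69 MAIT-type cells held 64 different TRB chains, 49 of them among the 53 cells of sgp53 3, where the largest clonotype had 2 T cells. TRBV13-3 and TRBV19, beta segments known for mouse MAIT cells, were used by 36 of the 69 (52.2%), against 11.6% of the other T cells with TRA. By group it was 4 of 4 in NICD and 32 of 65 (49.2%) in sgp53 libraries, with 4 of 10 in sgp53 2. Another 14 of the sgp53 cells used the combined entry TRBV12-2+TRBV13-2, which was not counted here. The TRA protein sequence was the same in 52 cells, and 51 of them had the same bases. The capital marks the base at which the versions of this protein sequence differ:
MAIT-type TRA, 51 T cells, 4 in NICD and 47 in sgp53 libraries: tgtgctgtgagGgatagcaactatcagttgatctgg

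**Figure D3:**
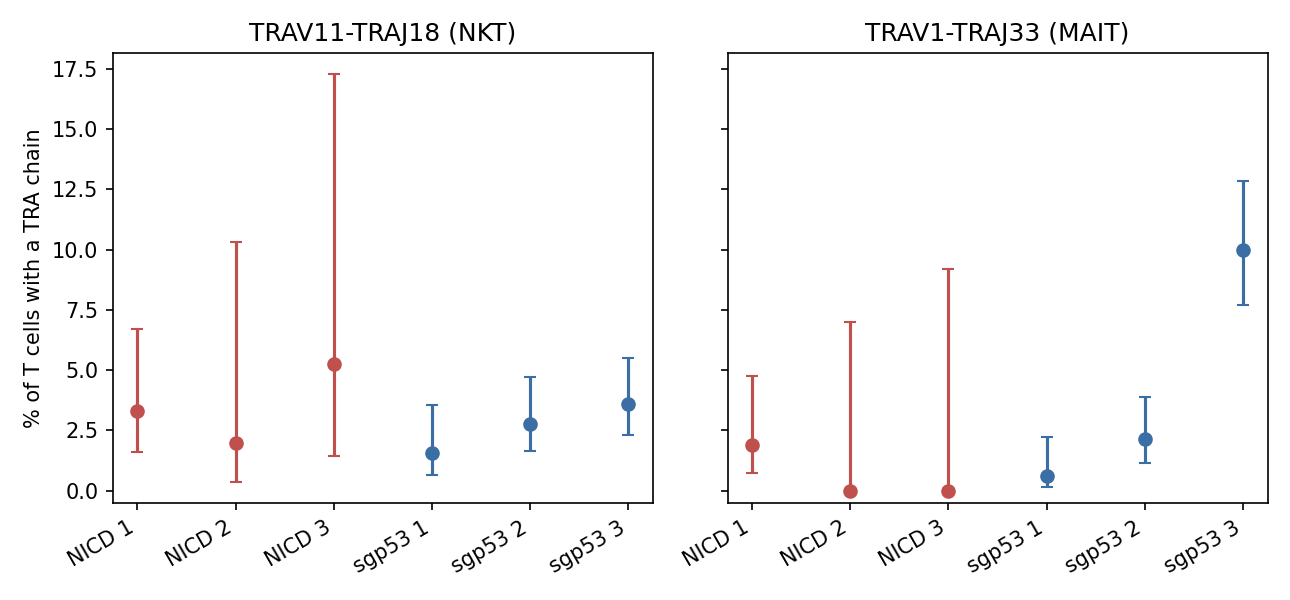
Percent of T cells with a TRA chain that carried TRAV11-TRAJ18 (left) or TRAV1-TRAJ33 (right) in each luc library, with 95% Wilson intervals, which cover counting error only. The NKT shares range from 1.55 to 5.26% with overlapping groups, while the MAIT-type share of sgp53 3, 9.98%, stands above the other 5, which reach at most 2.14%.

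Beta V segment use was compared over the 21 TRBV entries with at least 10 T cells in the 6 libraries, and 1 entry (4.76%) passed in the direction of higher in NICD and 0 (0%) lower. This was TRBV26 (chromosome 6, 41227525 to 41227913, GRCm38), carried by 15, 3 and 2 T cells in NICD 1, 2 and 3 and by 7, 13 and 7 in sgp53 1, 2 and 3. As shares of T cells these were 5.24, 3.90 and 4.08% in NICD and 1.74, 2.17 and 1.01% in sgp53 libraries. Every NICD library was above every sgp53 library. The fitted log2 fold change was 1.55 ± 0.41 (SE; edgeR quasi-likelihood test, adjusted p = 0.0425), and it stayed positive, from 1.24 to 1.84, in all 15 alternatives run.

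The call for TRBV26 was not firm. It was lost with DESeq2 (adjusted p = 0.526), with TMM scaling (0.0980), with each clonotype counted once (0.0757), with all female groups in the fit (0.0809), with possible doublets left out (0.0586) and with the 2 TRBV13-2 entries merged (0.0922). It was also lost without NICD 1 (edgeR adjusted p = 0.547), without NICD 2 (0.0797), without NICD 3 (0.0524) and without sgp53 3 (0.0568), and the adjusted p ranged from 0.00514 to 0.547 over all alternatives. The 20 TRBV26 cells of the NICD libraries belonged to 17 clonotypes with 9 TRBJ segments and 9 TRAV segments, and the 27 of the sgp53 libraries to 25 clonotypes with 9 TRBJ and 14 TRAV segments. The largest clonotype of NICD 1, shown above, is one of them and holds 4 of the 15 TRBV26 cells of that library. The median TRB contig of these cells had 8, 2 and 7.5 UMIs in NICD and 7, 8 and 7 UMIs in sgp53 libraries.

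In the lucOS animals TRBV26 took 1.85, 2.65 and 0.746% of T cells in NICD and 2.34, 2.78 and 2.35% in sgp53 animals. There the NICD mean was lower by 0.742 percentage points, with overlapping groups (exact permutation p = 0.3). The difference between the luc contrast and the lucOS contrast was 3.51 percentage points (exact permutation over 400 labellings, p = 0.005, the smallest possible, adjusted p = 0.045 over 9 measures). TRBV26 was picked in the luc animals for its difference, so this p does not count as independent evidence.

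Of the 21 entries, 3 had shares that did not overlap with higher values in NICD (14.3%) and 3 with lower ones (14.3%). TRBV31, the segment that lies in reverse orientation behind the constant regions, was at 4.55, 9.09 and 4.08% in NICD and 2.24, 2.17 and 3.04% in sgp53 libraries (log2 fold change 1.12, edgeR adjusted p = 0.0908). It passed when the TRB contig needed 3 or more UMIs (0.0191) and without sgp53 3 (0.0394). TRBV13-2 was at 3.15, 2.60 and 4.08% in NICD and 1.24, 1.34 and 1.16% in sgp53 libraries (1.32, edgeR adjusted p = 0.0931). Its value is uncertain because of the combined entry TRBV12-2+TRBV13-2. TRBV13-2 alone made up 22.5, 33.3 and 66.7% of the T cells of both entries in NICD and 11.9, 10.4 and 8.99% in sgp53 libraries, and with the entries merged the log2 fold change was -0.14.

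TRBV14 was lower in every NICD library, at 2.10, 1.30 and 2.04% against 5.22, 3.84 and 3.91% in sgp53 libraries (log2 fold change -1.13, edgeR adjusted p = 0.116). In each sgp53 library 6 to 8 of its cells belonged to 1 clonotype, and with clonotypes counted once the value was -0.52. TRBV16 was at 3.50, 2.60 and 4.08% in NICD and 4.73, 6.51 and 4.49% in sgp53 libraries (-0.63, edgeR adjusted p = 0.383). TRBV23, found in none of the 412 NICD T cells, was in 1.74, 0.668 and 0.289% of sgp53 T cells, and the count of 0 allows up to 0.728% in NICD. It entered the test, and the count of entries without overlap, only through the 7, 4 and 2 T cells of sgp53 1, 2 and 3 (-4.53, edgeR adjusted p = 0.413).

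TRBV17 was at 1.05, 5.19 and 0% in NICD and 8.71, 2.67 and 2.89% in sgp53 libraries. The value of sgp53 1 rests on its leading clonotype, which holds 31 of the 35 cells, and the log2 fold change of -1.32 (edgeR adjusted p = 0.383) became -0.54 with clonotypes counted once. It passed without sgp53 3 (-1.60, edgeR adjusted p = 0.0388). TRBV19 had the highest share when the 6 libraries were weighted equally, with 6.64, 5.19 and 22.4% in NICD and 4.98, 6.84 and 6.80% in sgp53 libraries. That rank rests on NICD 3, where 7 of its 11 cells are the leading clonotype. By T cells over the 6 libraries TRBV19, with 142, came after TRBV12-2+TRBV13-2 with 223, TRBV3 with 168, TRBV13-3 with 164, TRBV12-2 with 162 and TRBV1 with 159, and without NICD 3 the log2 fold change of 0.51 (edgeR adjusted p = 0.491) was -0.01. TRBV12-2+TRBV13-2 and TRBV1, next by equally weighted share, had log2 fold changes of -0.44 and 0.19 (edgeR adjusted p = 0.585 and 0.815). That of TRBV12-2+TRBV13-2 was -1.46 without NICD 1 and -0.24 without NICD 3, and that of TRBV1 was -0.15 without NICD 1.

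**Figure D4:**
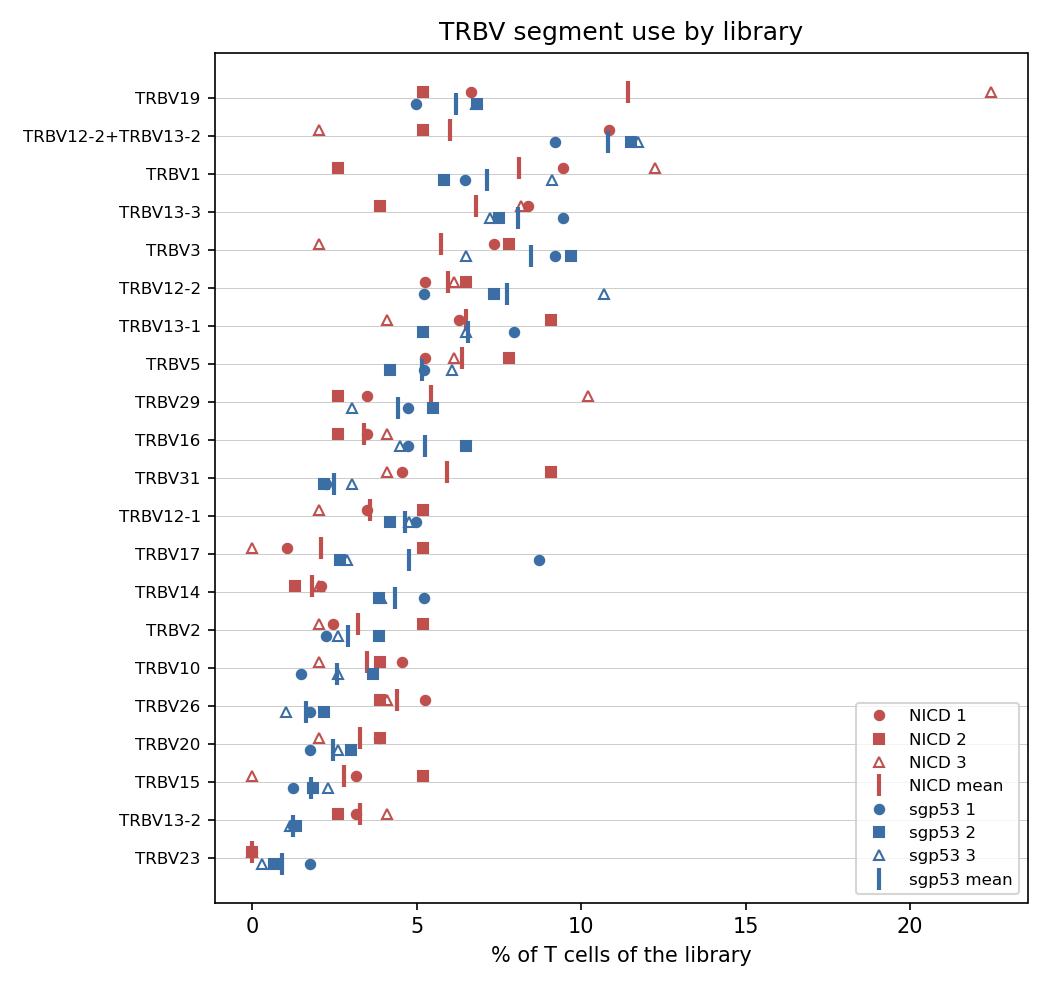
Share of T cells using each tested TRBV entry in each luc library, with group means as vertical strokes and entries ordered by mean share. TRBV26, TRBV31 and TRBV13-2 have all NICD points to the right of all sgp53 points, while the highest single point is TRBV19 in NICD 3, at 22.4%.

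None of the 12 TRBJ segments passed (0% in either direction). The count was 0 with edgeR, with 0 at an unadjusted p under 0.05, and 0 with DESeq2. TRBJ2-3, at 11.9, 11.7 and 4.08% in NICD and 7.46, 8.35 and 8.97% in sgp53 libraries, and TRBJ2-2, at 4.90, 2.60 and 0% in NICD and 12.2, 4.84 and 4.63% in sgp53 libraries, had the smallest p (edgeR adjusted p = 0.762 each). TRBJ1-1, TRBJ1-3, TRBJ1-5 and TRBJ2-5 came next, with log2 fold changes of 0.34, -0.46, -0.83 and 0.18. Without single libraries the values of TRBJ2-3 ranged from 0.048 to 0.51 and those of TRBJ2-2 from -2.12 to -0.28. The TRBJ2 cluster as a whole, which most mouse T cells use, took 68.9, 70.1 and 63.3% of T cells in NICD and 69.9, 65.6 and 69.3% in sgp53 libraries (exact permutation p = 0.7, adjusted p = 1).

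CDR3 length did not differ beyond the spread between libraries. The mean TRB CDR3 of a clonotype had 14.0, 13.8 and 14.1 amino acids in NICD 1, 2 and 3 and 13.9, 13.9 and 14.2 in sgp53 1, 2 and 3. The difference of means was -0.0252 amino acids, against an SD of 0.167 in each group (exact permutation p = 0.9, adjusted p = 1). The stretch between the common V and J ends, where trimming, the diversity segment and added bases leave their mark, averaged 11.7 ± 0.389 bases in NICD and 11.7 ± 0.524 in sgp53 clonotypes (SD, n = 3 each; exact permutation p = 1).

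None of the 58 tested TRAV segments passed (0% in either direction). The count was 0 with edgeR and 0 with DESeq2, with 4 and 1 segments at an unadjusted p under 0.05. Shares did not overlap with higher values in NICD for 2 segments (3.45%) and with lower values for 9 (15.5%), and NICD 2 and NICD 3, with 51 and 38 T cells with TRA, were at 0 for all 9. TRAV13N-1 was carried by none of the 300 NICD T cells with TRA and by 1, 6 and 19 in sgp53 1, 2 and 3. It entered the test only through the sgp53 libraries, and the count of 0 allows up to 1% of NICD T cells with TRA (edgeR adjusted p = 0.407). Of the 19 cells of sgp53 3, 16 are its leading clonotype, and sgp53 1 and sgp53 2 were at 0.310 and 1.28%.

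TRAV13-1 was at 4.27, 3.92 and 18.4% in NICD and 2.48, 2.78 and 2.82% in sgp53 libraries (log2 fold change 1.48, edgeR adjusted p = 0.657), where 6 of the 7 cells of NICD 3 are its leading clonotype. TRAV12-3 was at 1.90, 1.96 and 7.89% in NICD and 0.619, 0.857 and 0.565% in sgp53 libraries (2.07, edgeR adjusted p = 0.657), from 8 and 9 cells. TRAV1, the MAIT segment, was at 1.90, 0 and 0% in NICD and 0.929, 2.78 and 9.98% in sgp53 libraries (-1.95, edgeR adjusted p = 0.657). It passed with TMM scaling (-2.57, adjusted p = 0.0283), and without sgp53 3 the value was -0.65. TRAV7N-6 and TRAV3-3 had log2 fold changes of 1.98 and -2.28 (edgeR adjusted p = 0.735 each). Many TRAV segments have near-identical copies named with D or N, between which reads may be split, so single TRAV values are uncertain.

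None of the 40 tested TRAJ segments passed (0% in either direction). The count was 0 with edgeR and 0 with DESeq2, with 2 and 1 at an unadjusted p under 0.05. Shares did not overlap with higher values in NICD for 1 segment (2.5%) and with lower values for 3 (7.5%). NICD 2 and NICD 3, with 51 and 38 T cells with TRA, were at 0 for all 3. TRAJ33 was at 4.74, 0 and 0% in NICD and 12.1, 4.93 and 11.7% in sgp53 libraries (log2 fold change -1.69, edgeR adjusted p = 0.437). In sgp53 1, 30 of its 39 cells are the leading clonotype, and in sgp53 3, 53 of its 62 are the MAIT-type cells. With clonotypes counted once the value was -0.67, and without NICD 1 the adjusted p was 0.0430, with both remaining NICD libraries at 0.

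TRAJ27 was at 3.32, 13.7 and 7.89% in NICD and 2.79, 3.0 and 1.32% in sgp53 libraries (log2 fold change 1.55, edgeR adjusted p = 0.564). Within each library all its cells had different TRB chains, 17 in NICD and 30 in sgp53 libraries. TRAJ52 was at 1.90, 0 and 21.1% in NICD and 2.48, 1.5 and 1.88% in sgp53 libraries (1.39, edgeR adjusted p = 0.839), and without NICD 3, whose leading clonotype carries it, the value was -0.38. TRAJ6, TRAJ32 and TRAJ17 had log2 fold changes of 1.61, -1.62 and 1.18 (edgeR adjusted p = 0.839, 0.839 and 0.868). In sgp53 3, 16 of the 26 TRAJ32 cells are the leading clonotype, and the value was -1.03 without that library. Without NICD 1 the value of TRAJ17 was 0.079, and NICD 2 and NICD 3 held no TRAJ32 cell. Without NICD 3 the value of TRAJ6 was 1.00.

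Contigs that lack a V or a J segment also differed between the genotypes. Contigs made of TRBV26 with no J segment, which cannot encode a receptor chain, were found in 2366, 2597 and 4005 barcodes of NICD 1, 2 and 3, against 424, 889 and 594 barcodes of sgp53 1, 2 and 3. None of these barcodes was called a cell. All other TRBV segments together gave such contigs in only 2 to 5 barcodes of an NICD and 16 to 26 of an sgp53 library. The NICD mean was 4.70 times the sgp53 mean (2989 ± 887 against 636 ± 235 barcodes, SD, n = 3 each), with no overlap (exact permutation p = 0.1, adjusted p = 0.15 over 9 measures chosen after the data were seen).

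A second kind, a TRAJ segment joined to the alpha constant region TRAC with no V segment, was found in 1485, 706 and 905 barcodes in NICD and in 31, 45 and 49 barcodes in sgp53 libraries. The NICD mean was 24.8 times the sgp53 mean (exact permutation p = 0.1, adjusted p = 0.15). Of these barcodes, 6, 3 and 1 in NICD and 16, 14 and 25 in sgp53 libraries were called cells. In barcodes not called cells the counts were 1479, 703 and 904 in NICD and 15, 31 and 24 in sgp53 libraries, a ratio of 44.1 between the means (exact permutation p = 0.1). Over all barcodes with such a contig, called cells included, TRAJ37, TRAJ56 or TRAJ26 was found in 83.4, 75.1 and 78.7% in NICD. In sgp53 libraries it was 41.9, 24.4 and 28.6%, of only 31, 45 and 49 barcodes, many of them called cells. Both kinds of contig met in the same barcode 551, 252 and 566 times in NICD and 2, 4 and 4 times in sgp53 libraries. This was 37.1, 35.7 and 62.5% of the TRAJ-TRAC barcodes in NICD and 6.45, 8.89 and 8.16% in sgp53 libraries. Of all listed barcodes not called cells, 61.2, 77.1 and 88.2% in NICD and 21.1, 25.6 and 23.0% in sgp53 libraries held the TRBV26 kind. The share among TRAJ-TRAC barcodes, called cells included, was lower in every library. A barcode is listed only where it holds a contig, which by itself raises the share among all listed barcodes. The shares therefore cannot decide whether the 2 kinds are linked, and a link was not tested. The beta counterpart of the TRAJ-TRAC contigs, TRBJ joined to a beta constant region with no V, went the other way. It was found in 437, 204 and 191 barcodes in NICD and 539, 1175 and 1304 in sgp53 libraries. Of these, 371, 185 and 182 in NICD and 394, 927 and 984 in sgp53 libraries were not called cells.

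The same direction held in the lucOS animals, where barcodes with TRBV26 and no J numbered 1935, 2732 and 4046 in NICD and 197, 579 and 607 in sgp53 animals, the last being the mean of 2 nodules. Barcodes with TRAJ-TRAC and no V numbered 1639, 1217 and 806 in NICD and 70, 73 and 55 in sgp53 animals. With the genotype labels permuted within luc and within lucOS, each difference had an exact permutation p of 0.005, the smallest that 400 labellings allow. These contigs were picked after the data were seen, and the luc values they were picked on enter this unadjusted p. It therefore does not count as independent evidence. The deposited tables give no number of barcodes or molecules loaded, so these are counts per library and not shares of all cells, and the RNA of other cells or free RNA as their source was not tested.

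**Figure D5:**
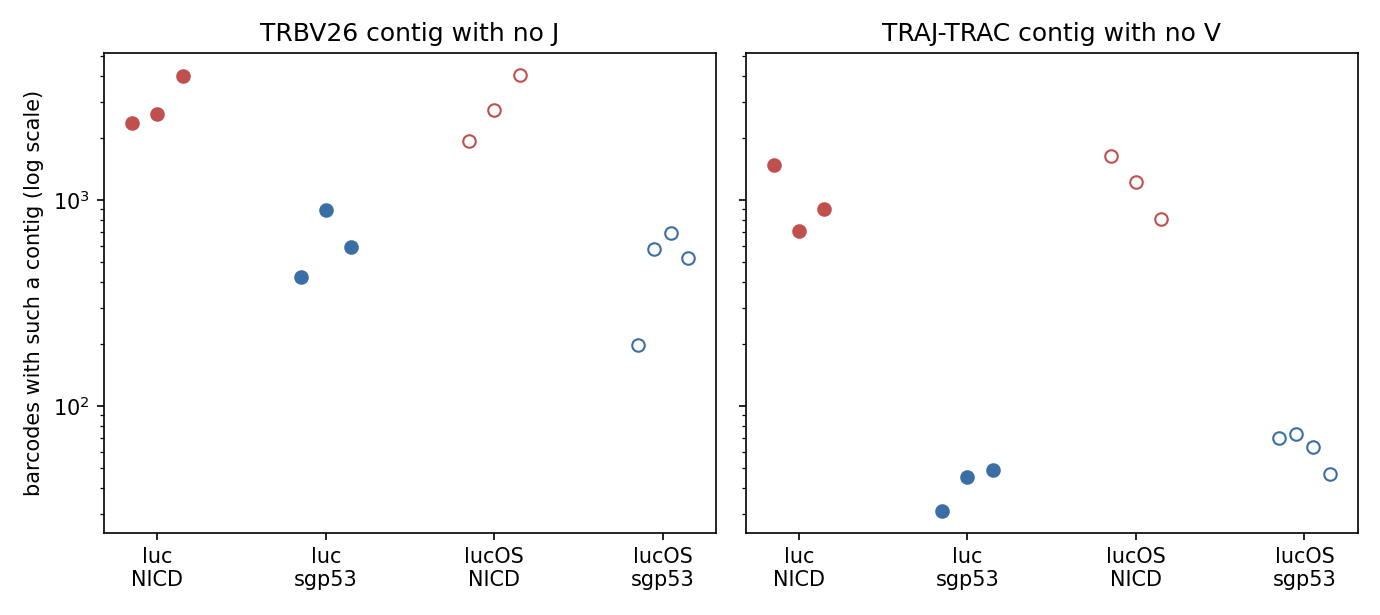
Barcodes per female library with a TRBV26 contig that has no J segment (left) or a TRAJ-TRAC contig that has no V segment (right), on a log scale, with filled points for luc and open points for lucOS. All NICD points lie above all sgp53 points in both panels, from 1935 against at most 889 barcodes on the left and from 706 against at most 73 on the right.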

How the data were processed

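TCR contigs of 15 tumour libraries were available, and 6 carry the comparison. Per the labels' protocols they come from a 10x Genomics droplet assay. The deposited tables list each contig with its count of UMIs and of reads. The submitters' processing notes name the tools Cell Ranger and Seurat and the mouse build mm10, with versions and roles not given in the sources used here. The bulk TPM table of the series was not used. Members, segment lists, tests and the naming rule were chosen with earlier results of these data known.

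T cells were barcodes with the deposited flags is a cell, high confidence and productive and a TRB contig. The 10 single values per library were compared by two-sided exact permutation tests and adjusted together (Benjamini-Hochberg). Segments with at least 10 T cells were tested on counts of T cells with edgeR 4.0.16 (quasi-likelihood, library totals, no further scaling), each family adjusted over all its segments and called at 0.05. DESeq2 1.42.0 was an alternative, as were TMM scaling, no filter, clonotypes counted once, all female groups, TRB contigs of 3 or more UMIs, and leaving out possible doublets (2 or more TRB or 3 or more TRA), shared barcodes or single libraries. The text names called segments, or the 6 with the smallest p, the 3 TRBV entries with the highest share averaged over libraries, the 2 largest clonotypes of each library and clonotypes found in 2 or more libraries. The edgeR step was tested on simulated counts with a fixed spread and without expanded clonotypes, so its behaviour with such clonotypes was not tested.

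Libraries held 49 to 691 T cells. Intervals are 95% Wilson intervals, a count of 0 allows 3 counts, and both cover counting error only. Titles give the libraries different animal numbers, but no label states that each is a separate mouse. Where the text speaks of animals it goes by these numbers, and the tests took each library as 1 replicate. Segment positions come from the RefSeq annotation of GRCm38.p6, the build mm10 names, and all 162 entries matched. Python 3.11.15, pandas 2.3.3, scipy 1.17.1 and R 4.3.3 were used.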

Additional observations from a re-analysis of the deposited data

Results flagged for a closer look

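Contigs that cannot encode a receptor chain, which the rule for T cells does not use, differed in number between the luc groups. They were picked after the data were seen (exact permutation p = 0.1, adjusted p = 0.15 for each kind). Those of TRBV26 with no J segment averaged 2989 barcodes in luc NICD and 636 barcodes in luc sgp53 libraries, and those of TRAJ-TRAC with no V segment averaged 1032 barcodes in luc NICD and 41.7 in luc sgp53 libraries, or 1029 and 23.3 barcodes that were not called cells. The TRBV26 share of T cells had a different contrast in the 2 antigen settings, since NICD minus sgp53 was 2.77 percentage points in luc and -0.742 in lucOS animals, a difference of 3.51 (exact permutation p = 0.005, adjusted p = 0.045). TRBV26 was picked in the luc animals for its difference, so this p does not count as independent evidence.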

How the results depend on the processing

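No paired analysis was possible because the replicate numbers follow accession order and pair no animals. Values here are NICD minus sgp53. The directions of T cells per library (leaving out single libraries gave -508 to -363), TRA pairing (-8.38 to -2.72 percentage points), the second TRA (-4.32 to -2.05) and the second TRB chain (-4.88 to -2.74) held in every alternative run. So did the MAIT share (-5.43 to -0.748) and the barcodes with TRBV26 and no J (1846 to 2665) or TRAJ-TRAC and no V (764 to 1153), under settings chosen after the data were seen. Values near 0 changed sign. The expanded share ranged from -6.67 to 3.09 without single libraries and was 0.528 with clonotypes defined by both chains. With at least 3 UMIs in the TRB contig the largest clonotype (-0.489), Simpson clonality (-0.100), CDR3 length (0.0456) and the NKT share (-0.472) reversed. Without single libraries these ranged from -3.21 to 3.28, -0.324 to 0.611, -0.0964 to 0.0709 and 0.00254 to 1.65, and the TRBJ2 share from -2.20 to 1.23. The number of TRBV entries called was 0 with TMM scaling, DESeq2, clonotypes counted once, all female groups, doublets left out or the TRBV13-2 entries merged, 2 with at least 3 UMIs, and 0 to 2 without single libraries. TMM scaling gave 1 called TRAV segment, and leaving out single libraries gave 0 called TRAV, 0 called TRBJ and 0 to 1 called TRAJ segments. Log2 fold changes that reversed were those of TRBV13-2 with its entries merged (-0.14), TRBV1 with clonotypes counted once (-0.0067) and, without single libraries, TRBV1 (-0.15 to 0.48), TRBV19 (-0.010 to 0.97), TRBJ1-5 (-1.43 to 0.068), TRBJ2-5 (-0.060 to 0.54) and TRAJ52 (-0.38 to 2.27). The cause of these changes was not tested. With libraries of under 100 T cells left out, 1 NICD library remained and the expanded share has no test. The 49 T cells of NICD 3 allow a receptor at 0 to reach 6.12% of its cells.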
